A study of Mus musculus with 16 samples.

Results

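RNA-seq of propranolol-treated Ccm3 KO cells (KO+P) was compared with untreated WT cells, to see what remained different from WT, and what was new, once the KO cells had received the drug. The comparison used all 3 KO+P and all 3 untreated WT libraries, 6 of the 16 libraries of the series, taken by their genotype and treatment labels and paired by replicate number. The cells were mouse brain microvascular endothelial cells (mBMEC) in culture, isolated from 8 to 10 week old mice that carried floxed Pdcd10 (Ccm3) alleles and Cdh5(PAC)-CreERT2, a Cre recombinase driven by the promoter of an endothelial cadherin and activated by 4-hydroxytamoxifen (4-OHT). KO cells had received 4-OHT and WT cells had not, so the loss of Ccm3 and the exposure to 4-OHT cannot be told apart. KO+P cells also received 10 µM propranolol for 24 h. Each culture was grown from pooled brains and selected with puromycin, and a culture, not a mouse, is the replicate. The 3 untreated KO libraries and the 2 libraries of propranolol-treated WT cells (WT+P) are used here to place each difference. In bulk RNA, fewer cells of a type and less RNA per cell cannot be told apart.

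Pdcd10 encodes CCM3, a small adaptor protein of the cerebral cavernous malformation complex, which in endothelial cells restrains the kinase MEKK3 and, through it, the transcription factors KLF2 and KLF4. Its loss in brain endothelium gives cavernomas, clusters of widened and leaky vessels. Propranolol blocks beta-adrenergic receptors without selecting between them, and it is also a cationic amphiphilic amine, a class of drugs that gathers in lysosomes. A pair of transcription programmes recurs in what follows. ATF4 is the effector of the integrated stress response and turns on amino acid transporters, amino acid synthesis and tRNA charging, and SREBP2 turns on cholesterol synthesis and the LDL receptor when sterol in the endoplasmic reticulum is low.

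The promoters below are shown because the lists of these 2 programmes held the largest shares of called genes among the 25 lists examined. All lists were written with earlier results of these data known, so this rank is no separate evidence. The sequences are the RefSeq promoter windows of the mouse build GRCm38.p6, read 5′ to 3′ on the strand of the gene, and the capitals mark the letters of the motif searched. The motif TGATGNAA, written for ATF4 with its C/EBP partners, was searched on both strands in the 250 bases before the start. Of the 25 genes of the ATF4 and amino acid stress list, 20 had a promoter window and 5 of these (25%) held the motif, against 3.91% of all 27025 symbols. They were Asns, Chac1, Nupr1, Slc7a11 and Vldlr, and the first 4 are printed, at chr6:7693210-7693272 (minus strand), chr2:119351009-119351096 (plus), chr7:126625533-126625620 (minus) and chr3:50443614-50443719 (minus). The Slc7a11 window held 2 matches. The motif TCACNCCAC, a sterol response element, was found in 1 of the 18 cholesterol list genes with a window (5.56%), Hmgcs1 at chr13:119690174-119690262 (plus strand), against 1.22% of all symbols. Vldlr is named for its match only and was not called, and of the 18 called genes of the ATF4 list with a window 4 held the motif. That list was written for ATF4, so its larger share of the motif is no separate evidence. A match is a string of letters and not a measured binding site.
Asns: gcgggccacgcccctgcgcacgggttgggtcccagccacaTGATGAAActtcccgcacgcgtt
Chac1: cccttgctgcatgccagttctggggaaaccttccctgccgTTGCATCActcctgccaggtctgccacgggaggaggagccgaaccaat
Nupr1: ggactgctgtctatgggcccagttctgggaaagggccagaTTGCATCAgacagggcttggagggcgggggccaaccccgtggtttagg
Slc7a11: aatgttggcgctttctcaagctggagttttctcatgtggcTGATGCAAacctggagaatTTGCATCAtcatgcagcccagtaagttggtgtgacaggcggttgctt
Hmgcs1: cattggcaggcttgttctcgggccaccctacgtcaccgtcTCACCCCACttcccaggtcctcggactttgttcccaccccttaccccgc

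The KO+P libraries held between 18.8 M and 23.9 M counts (M, mega) and the WT libraries between 22.2 M and 26.2 M. Levels are given as CPM, which corrects counts for library size with TMM factors, and each list of 3 values is in the order of replicate 1, 2 and 3. Pdcd10, the targeted gene, was at 11.5, 31.2 and 47.0 CPM in WT, at 9.72, 11.0 and 9.73 CPM in KO and at 16.7, 13.9 and 13.1 CPM in KO+P libraries. The library labelled WT replicate 1 was thus at the level of the KO libraries, below all 3 KO+P libraries, and Pdcd10 did not pass the test between KO+P and WT (log2 fold change −1.0 ± 0.40 SE, edgeR adjusted p = 0.12). Without that library it did (−1.51, edgeR adjusted p = 0.011). Groups are kept as labelled. Markers of endothelial cells summed to 9160 to 12500 TPM, the deposited unit scaled to transcript length and library size, in WT and 6510 to 9740 TPM in KO+P libraries. The sums of 6 fibroblast markers were 8.70 to 30.1 against 2.03 to 29.8 TPM, of 8 mural markers 29.0 to 149 against 31.4 to 72.8 TPM, of 6 astrocyte markers 20.1 to 43.5 against 33.7 to 61.0 TPM and of 5 neuron markers 2.41 to 10.2 against 9.64 to 24.5 TPM. Microglia, oligodendrocyte and epithelial markers each summed to at most 1.58 TPM, and in each of these 3 lists and in the fibroblast and astrocyte lists 1 marker was at 0 TPM in all 6 libraries.

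More genes were called between KO+P and WT cells than between untreated KO and WT, KO+P and KO, or WT+P and WT. Of the 14838 genes tested, 1329 (8.96%) were called, which means an adjusted p under 0.05 and a fold change over 1.5 in edgeR's quasi-likelihood test with the replicate number as a block, and 30.3% had an unadjusted p under 0.05. Of the called genes, 693 (4.67% of all tested) were higher and 636 (4.29%) lower in KO+P cells. The same test called 27 genes (0.182%) between untreated KO and WT, 16 higher (0.108%) and 11 lower (0.0741%). Between KO+P and KO it called 21 (0.142%), 20 higher (0.135%) and 1 lower (0.00674%), and between WT+P and WT 12 (0.0809%), 11 higher (0.0741%) and 1 lower (0.00674%). These counts differed far more than those at an unadjusted p under 0.05. The latter were 4497 genes between KO+P and WT, 3716 between KO+P and KO, 2047 between KO and WT and 1993 between WT+P and WT. The 21 called genes therefore do not show that the drug changed little in KO cells. The KO+P libraries lay outside the range of the WT libraries for 1089 of the 1329 genes (81.9%), against 22.3% of all tested genes. The difference had the same direction in the 3 replicate numbers for 1321 (against 45.0%). The genes were called on these same libraries, so both shares follow in part from the call and are no separate support. The count depended on the block, since without it 471 genes were called (264 higher, 207 lower), 470 of them among the 1329. Leaving out the library labelled WT replicate 1 gave 688 and leaving out WT replicate 3 gave 776, and without the first or the second KO+P replicate it was 496 or 557. DESeq2 with the block called 1747 genes (11.8%) between KO+P and WT, 933 between KO+P and KO and 396 between KO and WT. The main edgeR fit estimated the spread over all 16 libraries, and with only the KO+P and WT libraries in the fit 113 genes were called between them.

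Each called gene was placed by its steps. A gene was carried over if untreated KO cells already differed from WT by over 1.5-fold in the same direction at an unadjusted p under 0.05, and new if untreated KO cells were within 1.5-fold of WT or on the other side and the drug moved KO cells over 1.5-fold in the direction of the difference at an unadjusted p under 0.05. By this rule 421 genes were carried over (219 higher, 202 lower), 468 were new (263 higher, 205 lower) and 440 were neither. Without the block 155 were carried over and 151 new. The number of new genes was 101 without KO+P replicate 1, 136 with the second dropped and 1091 with the third dropped, and 160 without the library labelled WT replicate 1. These classes describe the fold changes and are not a test, and the comparisons share the WT or the KO libraries. Among the 421 carried over, KO+P cells were within 1.5-fold of untreated KO cells for 264 genes (62.7%). They were further from WT by over 1.5-fold for 109 (25.9%, at an unadjusted p under 0.05) and nearer to WT by over 1.5-fold for 1, with no p limit. Carried over genes had to be called in KO+P cells, so genes that moved back to WT were left out beforehand. The 109 against 1 is therefore no measure of the direction of the drug's effect. The other way round, 1096 genes (7.39% of all tested) differed between untreated KO and WT by over 1.5-fold at an unadjusted p under 0.05. In KO+P cells 421 of them were called against WT in the same direction, 364 were within 1.5-fold of WT and 16 were over 1.5-fold on the other side. The rest of the 1096 were still over 1.5-fold from WT in the direction of untreated KO cells but were not called.

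**Figure D1:**
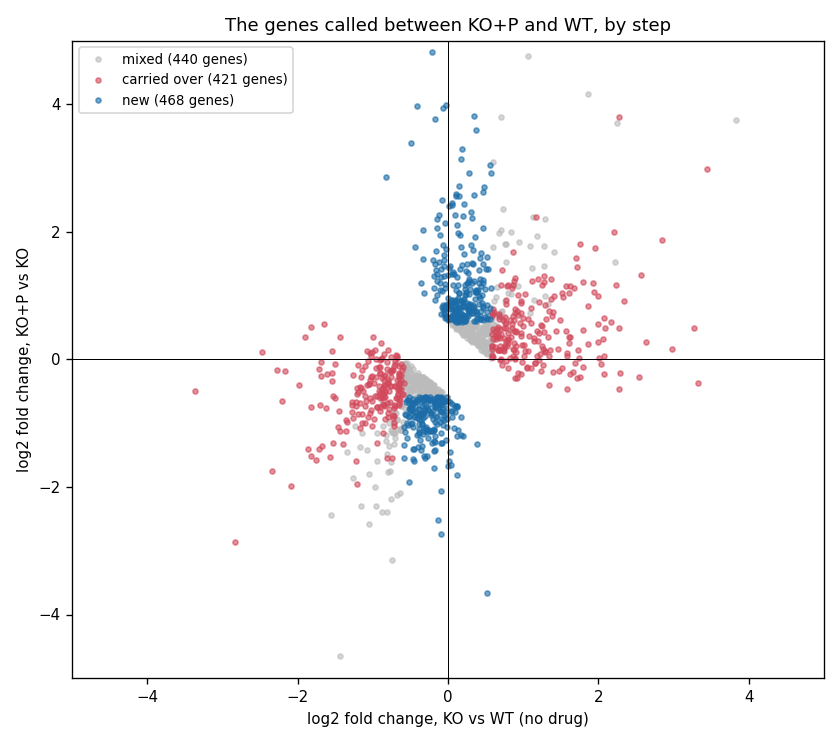
Each point is a gene called between KO+P and WT, placed by its log2 fold change between untreated KO and WT (x axis) and between KO+P and KO (y axis), with 421 carried over genes in red, 468 new genes in blue and 440 others in grey. New genes lie along the vertical axis and carried over genes to the left and right, and 4 called genes lie outside the axes, which end at 5.

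Klf4 and a part of the MEKK3, KLF2 and KLF4 list differed from WT in KO+P cells. Klf4 was at 68.5, 106 and 28.5 CPM in WT, at 149, 193 and 219 CPM in KO and at 375, 432 and 353 CPM in KO+P libraries. All KO+P libraries were above all WT and all KO libraries, and the rise over WT was 2.57 ± 0.39 on the log2 scale (SE, n = 3 and 3, edgeR adjusted p = 0.0039). Klf2 was at 269, 276 and 82.8 CPM in WT, at 489, 431 and 572 CPM in KO and at 585, 461 and 575 CPM in KO+P libraries. Its KO and KO+P levels overlapped, and the rise over WT (1.41 ± 0.42, edgeR adjusted p = 0.0485) did not pass the test without the block (adjusted p = 0.087) or with any single one of the 6 libraries left out. The WT replicate 3 library was the lowest for both genes. Adamts1, a secreted metalloprotease that cleaves matrix proteoglycans, was at 156, 88.2 and 67.3 CPM in WT and at 243, 465 and 301 CPM in KO+P libraries (log2 fold change 1.71 ± 0.35, edgeR adjusted p = 0.012), and the call was lost without KO+P replicate 2. Thbs1, which encodes the antiangiogenic protein thrombospondin 1, went the other way, at 3090, 2990 and 3800 CPM in WT and at 1800, 1250 and 1640 CPM in KO+P libraries (−1.09 ± 0.16, edgeR adjusted p = 0.0031). In untreated KO cells it was at 1930, 1690 and 1520 CPM, a range that overlapped that of the KO+P libraries.

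Of the 20 tested genes of the MEKK3, KLF2/KLF4 and targets list, 6 were higher and 2 lower, and 7 of these 8 were carried over. Thbd, the thrombin receptor thrombomodulin, rose by 1.00 and Wnt9b, a secreted Wnt ligand with under 5 CPM in every library, by 2.90 on the log2 scale. Nos3, the endothelial nitric oxide synthase, was not among them. It was at 600, 875 and 418 CPM in WT, at 869, 1200 and 1300 CPM in KO and at 566, 977 and 1050 CPM in KO+P libraries, and its log2 fold change against WT was 0.40 ± 0.31 (edgeR adjusted p = 0.41). The median log2 fold change over the list was 0.28 in KO+P and 0.50 in untreated KO cells against WT, beside −0.01 for all tested genes in both comparisons. By replicate number the KO+P minus WT medians of the list were −0.09, 0.12 and 0.67, so they differed in direction and the third was the largest. Without the block 2 genes of the list were higher and 1 lower.

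**Figure D2:**
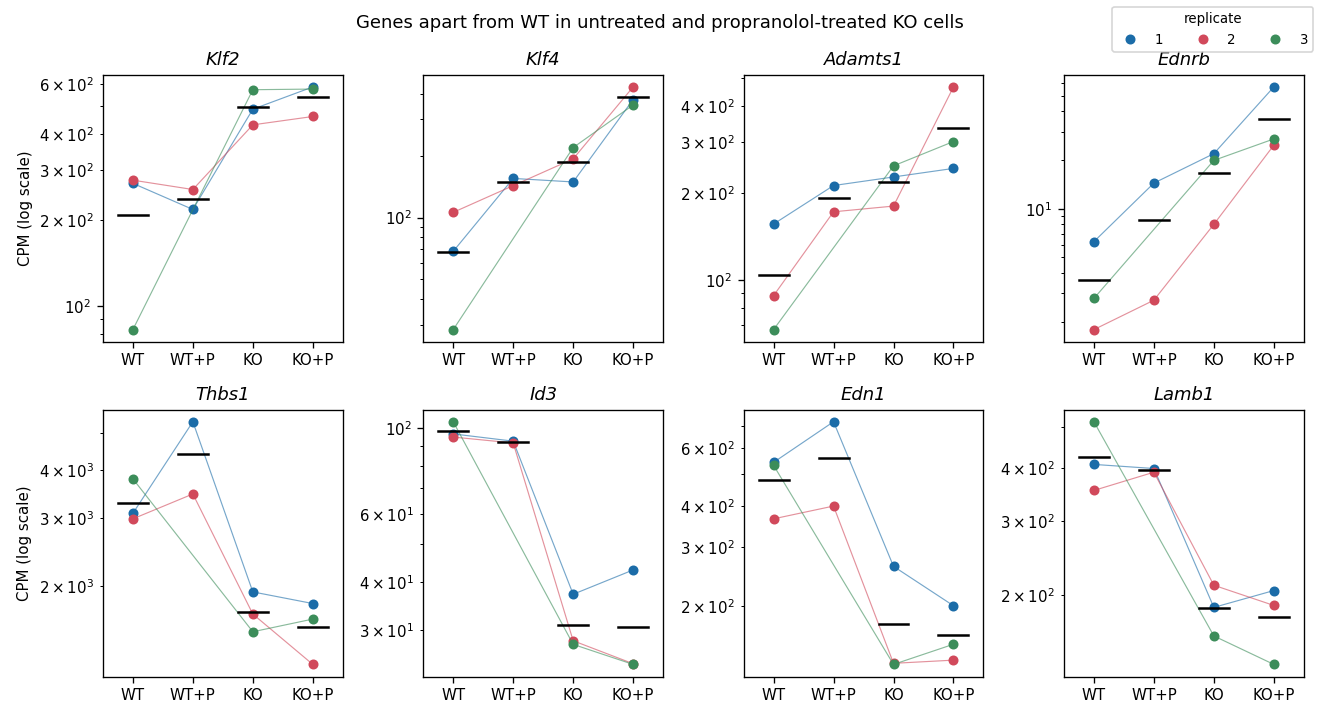
CPM on a log axis of 8 carried over genes in untreated WT, WT+P, untreated KO and KO+P libraries, with 1 point per library, the colour giving the replicate number, thin lines joining libraries of the same number and black bars at group means. In Id3, Edn1, Thbs1 and Lamb1 the KO and KO+P libraries sit together below WT and WT+P, and Klf4 and Ednrb are higher in every KO+P library than in the KO library of the same number.

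Id3 was hardly moved by the drug, with a log2 fold change of −0.03 between KO+P and KO. This inhibitor of bHLH transcription factors, induced by BMP signals, was at 96.7, 94.9 and 104 CPM in WT, at 37.1, 28.1 and 27.5 CPM in KO and at 42.9, 24.5 and 24.4 CPM in KO+P libraries, and at 92.6 and 91.6 CPM in WT+P libraries. The library labelled WT replicate 1 sat here with the other WT libraries, and the fall in KO+P cells was −1.73 ± 0.15 on the log2 scale (edgeR adjusted p = 0.00057). Of 24 tested genes of the BMP and ID signalling list, 4 were lower and 1 higher, all 5 carried over, beside 4.29% and 4.67% of all tested genes. Bmp6, a BMP ligand, changed by −1.35 and Bambi, a pseudoreceptor that dampens BMP and TGF-beta signals, by −2.33. The single rise was Nog, which encodes the BMP antagonist noggin, at 0.0460, 0.187 and 0.123 CPM in WT and 1.54, 2.25 and 1.03 CPM in KO+P libraries (3.70 ± 0.75, edgeR adjusted p = 0.011). Id2 was called lower at −1.02, but no longer when any of the 6 libraries was dropped. Without the block 2 genes of the list were lower and 1 higher.

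Edn1 and the endothelin receptor gene Ednrb went in opposite directions, while the receptor gene Ednra was not among the genes tested. Edn1, the vasoconstrictor endothelin 1, was at 542, 366 and 531 CPM in WT, at 263, 134 and 133 CPM in KO and at 200, 137 and 153 CPM in KO+P libraries (−1.57 ± 0.16, edgeR adjusted p = 0.00073). Ednrb, one of its receptors, was at 6.26, 1.79 and 2.79 CPM in WT, at 21.9, 8.01 and 19.9 CPM in KO and at 56.6, 24.7 and 27.0 CPM in KO+P libraries (3.40 ± 0.46, edgeR adjusted p = 0.0026). For both genes the KO+P and WT libraries did not overlap, and Ednrb was further from WT with the drug while Edn1 was not. That further rise of Ednrb was not called between KO+P and KO (edgeR adjusted p = 0.134). Adm, the vasodilator adrenomedullin, fell by 1.31 on the log2 scale, and Nostrin, which binds endothelial nitric oxide synthase, rose by 2.02. Ptgs2, the inducible cyclooxygenase, was between the classes, at 33.0, 188 and 89.2 CPM in WT, at 67.2, 228 and 148 CPM in KO and at 1580, 1630 and 383 CPM in KO+P libraries (3.69 ± 0.66, edgeR adjusted p = 0.0068). These 5 were the called genes among 12 tested in the endothelin and adrenomedullin list, 3 higher and 2 lower, and 3 higher and 1 lower without the block.

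Glycolysis and the response to hypoxia was the list with the most genes called lower. Of 29 tested genes of the list, 15 were lower and none higher (10 carried over, 5 neither class, 0 new), and the median log2 fold change was −0.60 in KO+P and −0.49 in untreated KO cells. Pfkfb3, which makes the activator of phosphofructokinase, was at 123, 73.3 and 142 CPM in WT, at 54.7, 47.9 and 36.2 CPM in KO and at 24.4, 29.8 and 32.7 CPM in KO+P libraries (−1.95 ± 0.25, edgeR adjusted p = 0.0020). Egln3, an oxygen-sensing prolyl hydroxylase, was at 131, 57.1 and 82.8 CPM in WT and at 10.4, 16.9 and 9.76 CPM in KO+P libraries (−2.85 ± 0.42, edgeR adjusted p = 0.0033). KO libraries lay between them for both genes. Pfkl, a phosphofructokinase subunit (−1.43), P4ha1, a collagen prolyl hydroxylase subunit (−0.95), and Ankrd37, a target of hypoxia-inducible factor (−1.14), also fell. The unblocked fit gave 13 lower genes, and the fit that dropped the library labelled WT replicate 1 gave 10. Without KO+P replicate 1, 8 were. In WT+P cells the median of the list was −0.34 against WT.

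Basement membrane and matrix genes were lower as well, with 12 of 27 tested called lower and 0 higher (4 carried over, 4 new, 4 neither). Lamb1, the laminin beta 1 chain, was at 408, 354 and 515 CPM in WT, at 187, 211 and 160 CPM in KO and at 205, 189 and 137 CPM in KO+P libraries (−1.29 ± 0.20, edgeR adjusted p = 0.0043). For this gene the drug made no difference larger than the spread of the KO libraries (KO+P against KO −0.08). Col18a1, the source of endostatin, was at 989, 851 and 831 CPM in WT, at 740, 658 and 634 CPM in KO and at 494, 531 and 491 CPM in KO+P libraries (−0.82 ± 0.12, edgeR adjusted p = 0.0030). Col27a1, a fibrillar collagen, fell by 1.98, Lama4, a laminin chain of vessels, by 0.72, and Fn1, fibronectin, by 1.11 on the log2 scale. Col5a1, another fibrillar collagen, fell by 1.55, with overlapping libraries. In the unblocked fit 5 were lower, and 8 with the library labelled WT replicate 1 dropped, 6 without WT replicate 3 and 5 without either the first or the second KO+P replicate. The median was −0.62 in KO+P and −0.04 in untreated KO cells. The fibroblast markers, which include 3 collagens, moved with this list. Their median log2 fold change was −1.56 in KO+P cells, 4 of 5 tested were below 0, 3 had an unadjusted p under 0.05, edgeR called 1 and DESeq2 with the block 3 lower. Their summed levels overlapped, as given above, and their part in this result was not tested.

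Notch and Wnt genes changed in both directions, beside 4.29% of all tested genes called lower and 4.67% higher. In the Notch and arteriovenous identity list, 5 of 19 tested genes were lower and 1 higher. Unc5b, a netrin receptor of arterial tip cells, was at 145, 129 and 212 CPM in WT, at 98.9, 90.9 and 86.2 CPM in KO and at 46.6, 46.6 and 54.7 CPM in KO+P libraries (−1.70 ± 0.16, edgeR adjusted p = 0.00061). Dll4, the endothelial Notch ligand, was at 553, 565 and 741 CPM in WT and at 186, 288 and 254 CPM in KO+P libraries (−1.38 ± 0.29, edgeR adjusted p = 0.012). Hey1, a Notch target, and Gja4, the arterial connexin 37, were called lower at −1.85 and −2.97, each kept in only 1 of 6 fits with a library dropped, and the Notch ligand Jag2 was called higher at 0.95, also kept in 1 of the 6. Dll4 lost its call without KO+P replicate 1 or WT replicate 3. In the unblocked fit 2 Notch genes were lower and 0 higher, and 1 was lower without KO+P replicate 1 or WT replicate 3. In the Wnt and beta-catenin list 6 of 23 tested genes were lower and 3 higher. Wnt9a (−1.24) and Frzb (−1.43), a Wnt ligand and a secreted Wnt antagonist, and Adgra2 (−0.74), the brain endothelial coreceptor for WNT7, fell, while Nkd2 (1.68), an inhibitor of Dishevelled, and Dkk2 (1.70), a secreted modulator of Wnt receptors, rose. Frzb lost its call when either the first or the second KO+P replicate was dropped, and Adgra2 when KO+P replicate 1 or the library labelled WT replicate 1 was. In the unblocked fit 3 Wnt genes were lower and 0 higher, and 1 was lower without KO+P replicate 1.

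By fold change, some carried over genes were much further from WT with the drug. Sox11, a transcription factor of developing neurons, was at 0.276, 0.486 and 0.287 CPM in WT, at 1.12, 3.45 and 0.933 CPM in KO and at 24.5, 57.4 and 5.06 CPM in KO+P libraries, with 2.03 and 4.89 CPM in WT+P libraries (6.08 ± 0.58, edgeR adjusted p = 0.00064). Among called genes that met the naming rule, with a mean level of 1 CPM or more and groups that did not overlap, its rise was the largest. The orphan nuclear receptor Nr4a1 was at 36.9, 18.8 and 8.00 CPM in WT, at 86.3, 47.7 and 69.4 CPM in KO and at 264, 216 and 212 CPM in KO+P libraries, and at 237 and 71.9 CPM in WT+P libraries (3.56 ± 0.39, edgeR adjusted p = 0.00097). Both genes rose in each step, and no KO+P library reached down to the range of the WT libraries. Nr4a2, a relative of Nr4a1, rose by 3.40, Atp2a3, a calcium pump of the endoplasmic reticulum, by 4.20, and Car5a, a mitochondrial carbonic anhydrase, by 4.72. The p-values of Sox11 and Nr4a1 are for KO+P against WT. Between KO+P and KO, Atp2a3 and Car5a were not called (edgeR adjusted p = 0.0548 and 0.0835). Trim54 and Lancl3 rose by 3.30 and 3.17.

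Among the falls, Atoh8, a bHLH transcription factor, was at 21.8, 1.91 and 10.5 CPM in WT, at 3.56, 0.759 and 2.80 CPM in KO and at 0.375, 0 and 1.55 CPM in KO+P libraries (−4.08 ± 0.63, edgeR adjusted p = 0.0039). The WT levels spread widely, and in each replicate number KO lay between WT and KO+P. Kirrel3, an adhesion molecule of the immunoglobulin family, was at 6.67, 14.9 and 13.0 CPM in WT, at 1.59, 2.77 and 2.26 CPM in KO and at 0.0833, 0.292 and 1.91 CPM in KO+P libraries (−4.09 ± 0.73, edgeR adjusted p = 0.0068). Epor, the erythropoietin receptor (−3.16), Npr3, a clearance receptor for natriuretic peptides (−3.10), Abca9 (−3.35), Megf6 (−3.34), Gkn1 (−3.28) and Ltb, the cytokine lymphotoxin beta (−3.88), were the other carried over genes named for the size of their fall. Pde1a, a cyclic nucleotide phosphodiesterase (−3.24), and Hs3st1, a heparan sulfate sulfotransferase (−3.12), fell as far without belonging to either class, and each kept its call in only 1 of 6 fits with a library dropped.

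Among new differences, ATF4 and amino acid stress genes had the most calls of the 25 lists, which were written with earlier results known. Of 25 tested genes of the list, 23 were higher and none lower, and 21 of the 23 were new. The new class asks only an unadjusted p of the drug step, and 2 of the 25 were called between KO+P and KO and 0 between WT+P and WT. The median log2 fold change was 1.69 between KO+P and WT, −0.04 between untreated KO and WT, 1.76 between KO+P and KO, and 1.56 between WT+P and WT. Chac1, which breaks down glutathione, was at 16.8, 26.9 and 26.3 CPM in WT, at 22.4, 51.2 and 22.9 CPM in KO and at 670, 485 and 142 CPM in KO+P libraries, and at 574 and 112 CPM in WT+P libraries (3.98 ± 0.63, edgeR adjusted p = 0.0043). Asns, the asparagine synthetase, was at 32.2, 46.3 and 37.8 CPM in WT, at 40.6, 50.3 and 36.6 CPM in KO and at 452, 275 and 102 CPM in KO+P libraries (2.68 ± 0.48, edgeR adjusted p = 0.0068). Untreated KO libraries overlapped WT for both genes and every KO+P library was above them. Neither gene was called between KO+P and KO (edgeR adjusted p = 0.0504 and 0.0555). Nupr1, a stress-induced chromatin protein, rose by 2.87 and Psph, the last enzyme of serine synthesis, by 1.85 on the log2 scale. Slc1a5, a glutamine transporter, was the list's only carried over gene (1.32). The 2 tested genes not called were Sesn2 (log2 fold change 0.26) and Vldlr (−0.71), named after their values were seen.

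Amino acid transporters were among the new genes with the largest rises. Slc7a11, the cystine and glutamate exchanger, was at 6.53, 5.90 and 24.1 CPM in WT, at 10.1, 12.2 and 28.9 CPM in KO and at 190, 122 and 45.0 CPM in KO+P libraries (3.62 ± 0.72, edgeR adjusted p = 0.010). Slc7a3, a cationic amino acid transporter, was at 0.322, 0.486 and 0.615 CPM in WT and at 31.8, 14.2 and 1.55 CPM in KO+P libraries (4.60 ± 1.01, edgeR adjusted p = 0.015). In both genes KO+P replicate 3 was by far the lowest KO+P library. Slc6a9, a glycine transporter (4.16), Aldh1l2, a mitochondrial folate enzyme (3.97), Bcat1, the cytosolic branched-chain aminotransferase (3.56), Extl1 (3.60) and the lysolipid transporter Mfsd2a (3.48) were also new. Adm2, a relative of adrenomedullin, rose by 5.82, Gng4, a G protein subunit, by 5.95 and Soat2, which esterifies cholesterol, by 6.03, from WT levels of at most 0.184 CPM, and these 3 belonged to neither class.

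**Figure D3:**
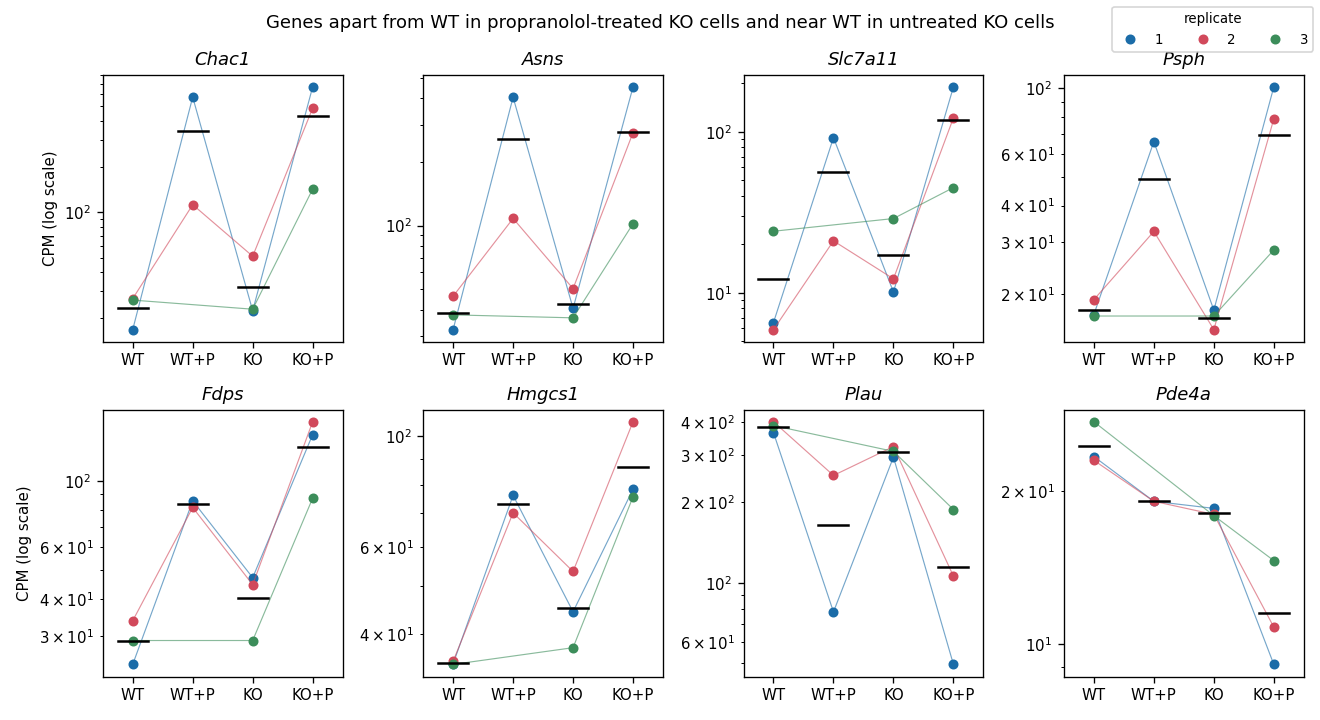
CPM on a log axis of 8 new genes in untreated WT, WT+P, untreated KO and KO+P libraries, with 1 point per library, the colour giving the replicate number, thin lines joining libraries of the same number and black bars at group means. Untreated KO libraries sit near WT, and for Chac1, Asns, Slc7a11 and Psph the order of the KO+P libraries is replicate 1, 2 and 3 from high to low.

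The size of the ATF4 difference varied between replicate numbers. The median over the list was 2.59 in replicate number 1, 1.71 in 2 and 0.72 in 3, on the scale of log2 CPM with a prior count of 2. Leaving out the library labelled WT replicate 1 left 6 genes called, and leaving out KO+P replicate 1 or 2 or WT replicate 2 or 3 left 8, 9, 10 and 14, while 23 were called without KO+P replicate 3. Without the block 16 were. Asns, Chac1, Nupr1, Psph and Slc1a5 stayed called whichever of the 6 libraries was dropped.

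Cholesterol synthesis rose more evenly. Of 25 tested genes of the cholesterol synthesis and SREBP2 list, 21 were higher, 0 lower and all 25 had a log2 fold change above 0, and 15 of the 21 were new and 3 carried over. Between KO+P and KO 12 of the 25 were called, and between WT+P and WT 7. Fdps, the farnesyl diphosphate synthase, was at 24.1, 33.8 and 29.0 CPM in WT, at 47.2, 44.7 and 29.0 CPM in KO and at 143, 158 and 87.4 CPM in KO+P libraries, and at 85.6 and 81.3 CPM in WT+P libraries (2.11 ± 0.17, edgeR adjusted p = 0.00025). Hmgcs1, which makes HMG-CoA, was at 34.9, 35.3 and 34.8 CPM in WT, at 44.4, 53.5 and 37.6 CPM in KO and at 78.3, 107 and 75.6 CPM in KO+P libraries, and at 76.1 and 70.2 CPM in WT+P libraries (1.30 ± 0.12, edgeR adjusted p = 0.00061). In both genes every KO+P library was above all untreated WT and KO libraries, and for Hmgcs1 the KO+P and WT+P libraries overlapped. Msmo1, a sterol demethylase (1.58), Pmvk, the phosphomevalonate kinase (1.10), and Fdft1, the squalene synthase (0.90), stayed called whichever library was dropped. The list's median was 1.17 between KO+P and WT, 0.29 between KO and WT, 0.89 between KO+P and KO and 0.90 between WT+P and WT. By replicate number it was 1.29, 1.37 and 1.00. Without the block 19 genes were called, and 20 or 21 with any of the 6 libraries dropped.

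Enzymes of fatty acid synthesis went with them. Of 15 tested, 9 were higher and none lower, 6 of them new. Fasn, the fatty acid synthase, was at 112, 164 and 140 CPM in WT, at 198 ± 36.4 CPM (mean ± SD, n = 3) in KO and at 275, 354 and 297 CPM in KO+P libraries (1.17 ± 0.09, edgeR adjusted p = 0.00025). Scd2, a desaturase, was at 129, 182 and 167 CPM in WT, at 374, 448 and 269 CPM in KO and at 714, 958 and 938 CPM in KO+P libraries (2.46 ± 0.31, edgeR adjusted p = 0.0017). Scd2 was higher than WT without the drug too and was carried over, while Fads1, another desaturase, was new (1.13), and Acaca, which makes malonyl-CoA, belonged to neither class (0.88). Without the block 4 genes of the list were called. The LXR targets and sterol efflux list was split, with 2 of 12 tested genes higher and 2 lower, beside 4.67% and 4.29% of all tested genes. Nr1h3, the receptor LXR alpha, rose by 1.12 and Pltp, a phospholipid transfer protein, by 1.49, while Apoe fell by 1.53, and of the 4 only Nr1h3 stayed called whichever library was dropped. Without the block 0 of the 4 were called.

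**Figure D4:**
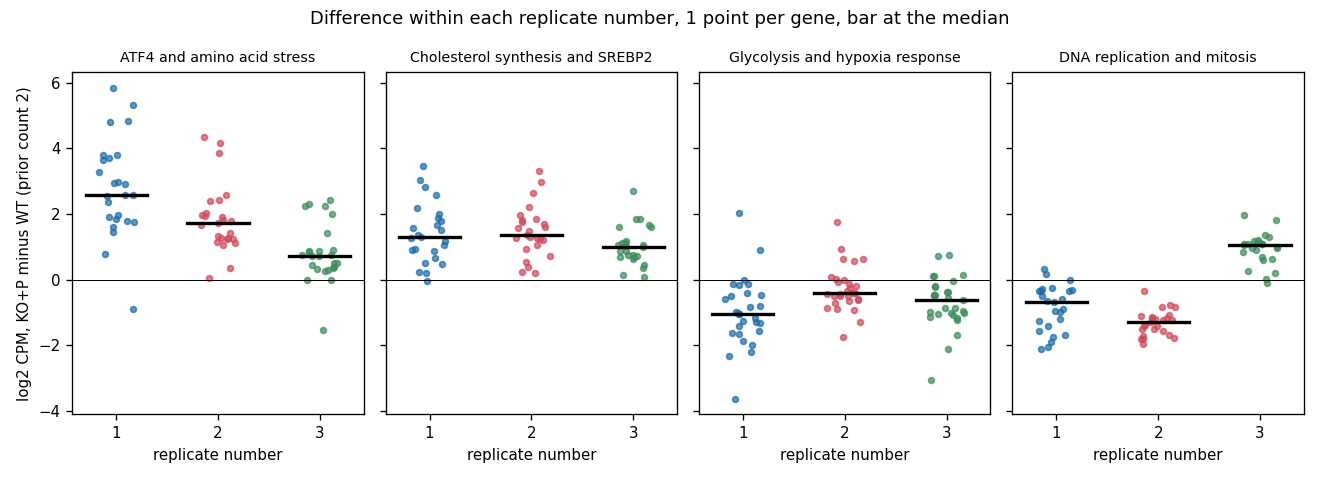
Log2 CPM of KO+P minus WT within each replicate number for the genes of 4 lists, with 1 point per gene and a bar at the median. The ATF4 medians are 2.59, 1.71 and 0.72, the cholesterol medians 1.29, 1.37 and 1.00, the glycolysis medians −1.05, −0.42 and −0.61 and the DNA replication and mitosis medians −0.69, −1.31 and 1.04.

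Other stress genes rose in part, beside 4.67% of all tested genes called higher. Of 18 tested endoplasmic reticulum chaperone genes, all 18 had a log2 fold change above 0, but only 3 were called, Herpud1 (1.66), Xbp1 (0.84) and Edem1 (1.11), which serve protein folding and degradation there, and each was kept in only 1 of 6 fits with a library dropped. Without the block 0 were. The list's median was 1.72 in replicate number 1, 0.31 in 2 and 0.13 in 3. Of 18 tested heat shock genes 4 were higher and 0 lower, among them Hspa1a (3.12) and Hspa1b (2.57), near-identical HSP70 genes whose reads cannot be fully told apart. The heat shock count was 2 without the block, 0 without KO+P replicate 1 or without WT replicate 3, and 1 when KO+P replicate 2 or the library labelled WT replicate 1 was dropped. Of 20 tested NRF2 and antioxidant genes 3 were higher, 7 without KO+P replicate 3 and 1 with any other of the 6 libraries dropped. Of the 3, the quinone reductase Nqo1 (28.0, 33.2 and 32.4 CPM in WT, 72.5, 61.9 and 205 CPM in KO, 142, 63.2 and 199 CPM in KO+P libraries) was carried over and the sulfiredoxin Srxn1 (2.01) was new. Of 26 tested immediate early genes 8 were higher and 1 lower, among them the phosphatase gene Dusp1 (1.20), Apold1 (2.04), a vascular early gene, and Nr4a3 (3.09). Without the block 5 of these were higher.

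The medians of new rises and new falls were close, at 1.16 and −1.12 on the log2 scale. Plau, the urokinase plasminogen activator, was at 364, 400 and 387 CPM in WT, at 295, 323 and 310 CPM in KO and at 49.6, 106 and 188 CPM in KO+P libraries, and at 77.9 and 252 CPM in WT+P libraries (−1.86 ± 0.39, edgeR adjusted p = 0.012), and the call was lost without KO+P replicate 1 or 2. Pde4a, a cAMP phosphodiesterase, was at 23.4, 23 and 27.4 CPM in WT, at 18.5, 18 and 17.9 CPM in KO and at 9.12, 10.8 and 14.6 CPM in KO+P libraries (−1.10 ± 0.18, edgeR adjusted p = 0.0049). KO+P and WT libraries did not overlap in either gene. Lyl1, a haematopoietic and endothelial bHLH factor (−2.13), Cdca7l (−2.03), Lrrc70 (−2.05), Nkpd1 (−1.93), Prr18 (−1.89) and Tox3 (−1.88) were the other new falls named for their size, among genes with a mean level of 1 CPM or more and groups that did not overlap. Exosc6, an exosome subunit, had 0 counts in all 3 KO+P libraries and in both WT+P libraries, against 16.8, 25.5 and 13.8 CPM in WT and 18.8, 9.94 and 17.8 CPM in KO libraries, at least 420-fold lower by a floor of 3 counts over the 3 libraries. All of its exonic bases (100%) overlap Aars1, the alanyl-tRNA synthetase of the ATF4 list, which was at 138, 143 and 155 CPM in WT and at 377, 298 and 198 CPM in KO+P libraries. Aars1 was singled out after its values were seen, and whether the reads of Exosc6 were given to it was not tested.

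Of 27 tested genes of the beta-adrenergic and cAMP list 5 were lower and 2 higher, and without the block 2 and 1. For comparison, 4.29% of all tested genes were called lower and 4.67% higher with the block. Besides Pde4a, the phosphodiesterase gene Pde4b (−1.92) and the kinase anchor Akap12 (−0.76) fell, and Crem (0.62), a cAMP-responsive repressor, rose. Of 32 tested lysosome genes 5 were higher and 1 lower, with Mcoln2, a lysosomal channel (2.52), and Neu1, a sialidase (0.77), among the rises and Ctsa, a protective protease (−0.77), as the fall. The median of the lysosome list was 0.07, and without the block 1 gene was higher and 0 lower. The rises also numbered 1 when the first or the second KO+P replicate or the library labelled WT replicate 1 was dropped.

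A minority of endothelial genes was called lower, while most had a log2 fold change below 0. Over all tested genes 4.29% were called lower and 4.67% higher. Cdh5, which encodes VE-cadherin and whose promoter drives the Cre, was at 4260, 3510 and 5190 CPM in WT, at 3660, 3010 and 3200 CPM in KO and at 2450, 2530 and 2710 CPM in KO+P libraries (−0.74 ± 0.15, edgeR adjusted p = 0.0097). All KO+P libraries were below all WT libraries. Of 24 tested genes of the endothelial identity list 4 were lower and 1 higher, and 20 had a log2 fold change below 0, with a median of −0.34. The receptor tyrosine kinase Tie1 (−0.61), the adhesion molecule Esam (−0.75) and Vwf, the von Willebrand factor (−1.78, with 11.5 to 144 CPM in WT), were the other falls, and Podxl, a sialomucin of the luminal surface (1.51), rose. In the unblocked fit 1 gene of the list was lower, as in the fit that dropped the library labelled WT replicate 1. Of 24 tested tight junction and barrier genes 2 were lower and 2 higher, and 1 and 2 in the unblocked fit. Tjp1, the scaffold ZO-1, changed by −0.90, and Jam2, a junctional adhesion molecule, rose from 7.22, 4.82 and 4.80 CPM in WT to 10.7, 11.9 and 20.7 CPM in KO+P libraries, with 15.8, 13.7 and 18.2 CPM in KO libraries. Among the 12 endothelial markers 4 were lower and 0 higher, among 5 fibroblast markers tested 1 was lower (Col1a1) and among 2 astrocyte markers 1 was higher (Gja1). Of the mural, microglia, oligodendrocyte, neuron and epithelial markers tested (6, 2, 1, 1 and 1), 0 were called by edgeR with the block or by DESeq2, and 1 mural marker had an unadjusted p under 0.05 in edgeR.

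Other groups held few calls, beside 4.67% of all tested genes called higher and 4.29% lower. In the CCM complex and STRIPAK list 2 of 15 tested genes were higher and 0 lower, both small GTPases that bind the complex. Rap1a was at 89.4, 91.8 and 68.0 CPM in WT, at 139, 114 and 88.6 CPM in KO and at 177 ± 47.7 CPM (mean ± SD, n = 3) in KO+P libraries, each above all WT libraries (1.07 ± 0.15, edgeR adjusted p = 0.0028), and Rap1b rose by 0.73. Both were new and stayed called whichever library was dropped. The TGF-beta and endothelial-mesenchymal transition list had 5 of 26 lower and 0 higher, with Cdh2, N-cadherin (−1.44), of the smallest p, and the YAP and TAZ list 5 of 20 lower and 0 higher, with Tead1 (−0.82) and Dlc1 (−0.97) of the smallest p. Without the block 1 of the former and 4 of the latter were lower. In the interferon and antigen presentation list 2 of 29 were higher and 1 lower, and in the leukocyte adhesion and chemokine list 1 of 17 was higher (Ccl7, 2.75) and 1 lower (Ltb), and without the block 1 higher and 0 lower in each. Of 25 tested genes of DNA replication and mitosis 0 were called by edgeR, with or without the block, or by DESeq2, 3 had an unadjusted p under 0.05 in edgeR, and 24 had a log2 fold change below 0. The median of this list was 0.96 between KO and WT and −1.55 between KO+P and KO, and by replicate number the KO+P minus WT medians were −0.69, −1.31 and 1.04, so the replicate numbers went in opposite directions, and 4 genes were called lower without KO+P replicate 3.

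**Figure D5:**
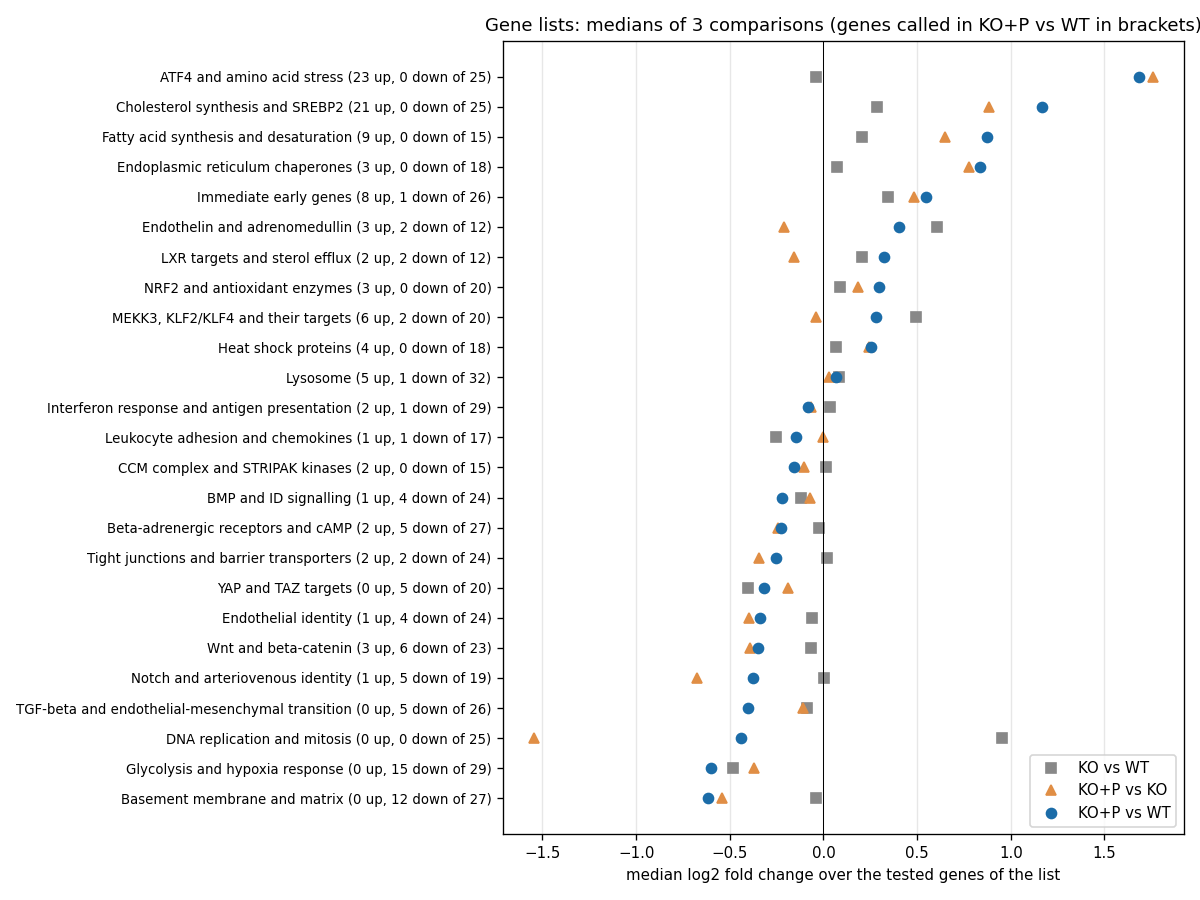
Median log2 fold change over the tested genes of each of the 25 lists for KO vs WT (grey squares), KO+P vs KO (orange triangles) and KO+P vs WT (blue circles), with the number of genes called higher and lower between KO+P and WT beside each name. The ATF4 list is at −0.04, 1.76 and 1.69 and the glycolysis list at −0.49, −0.37 and −0.60.

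Of the 27 genes called between untreated KO and WT, 22 were still called between KO+P and WT, and 5 were within 1.5-fold of WT. Mylk, the myosin light chain kinase, was at 14.8, 18.7 and 12.8 CPM in WT, at 24.2, 28.4 and 21.6 CPM in KO and at 18.1, 23.4 and 19.1 CPM in KO+P libraries. Foxc1, a transcription factor of vessel development, was at 42.7, 46.1 and 59.6 CPM in WT, at 32.2, 28.7 and 36.1 CPM in KO and at 36.3, 36.2 and 40.3 CPM in KO+P libraries. Aatk, Wdr62 and Stard8 were the other 3. The KO+P libraries lay between the WT and KO levels in mean for all 5, with log2 fold changes against WT of 0.40, −0.39, 0.46, 0.45 and 0.50, and the move between KO and KO+P was at most 0.63 on the log2 scale. Mylk, Foxc1 and Stard8 still differed from WT by the p-value alone (edgeR adjusted p = 0.028, 0.033 and 0.011). None of the 5 passed the test between KO+P and KO, where the smallest edgeR adjusted p was 0.084. The 5 depended on the fit, since 0 genes were both called in KO and back in KO+P cells without the block, and 88 were in DESeq2 with it.

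Some of the named genes share exonic bases with another gene, and since the libraries were unstranded their reads cannot be fully told apart. The share was 81.4% for Ankrd37, 82.8% for Lrrc70, 48.8% for Nostrin, 42.6% for Epor, 39.8% for Pfkl, 36.9% for Ctsa, 36.2% for Id2, 35.9% for Trim54, 33.8% for Slc6a9, 32.7% for Nos3, 31.9% for Adm, 31.8% for Gja4 and 29.6% for Car5a. It was between 21.2% and 24.8% for Edn1, Nupr1, Fdft1, Ltb, Pltp and Xbp1, and lower for the other named genes except Exosc6.

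Many single calls depended on the block or on 1 library. Of the called genes named here, the following had an adjusted p of 0.05 or more in edgeR without the block: Klf2, Thbd, Wnt9b, Bmp6, Id2, Adm, Ankrd37, Fn1, Col5a1, Hey1, Gja4, Jag2, Adgra2, Nkd2, Dkk2, Lancl3, Atoh8, Npr3, Megf6, Ltb, Pde1a, Hs3st1, Bcat1, Extl1, Acaca, Nr1h3, Pltp, Apoe, Herpud1, Xbp1, Edem1, Lyl1, Cdca7l, Lrrc70, Prr18, Tox3, Pde4b, Mcoln2, Ctsa, Tie1, Esam, Vwf, Podxl, Col1a1 and Gja1. When the library labelled WT replicate 1 was dropped, calls were lost for Slc7a11, Klf2, Id2, Hey1, Gja4, Adgra2, Trim54, Lancl3, Npr3, Pde1a, Hs3st1, Slc7a3, Aldh1l2, Bcat1, Extl1, Mfsd2a, Soat2, Pltp, Apoe, Herpud1, Xbp1, Edem1, Hspa1a, Hspa1b, Srxn1, Lyl1, Lrrc70, Nkpd1, Prr18, Tox3, Aars1, Mcoln2, Tie1, Esam, Vwf, Col1a1, Gja1 and Ccl7. A further group kept this call but lost it when another of the 6 libraries was dropped: Adamts1, Thbd, Wnt9b, Bambi, Adm, Lama4, Fn1, Col5a1, Dll4, Jag2, Frzb, Abca9, Megf6, Ltb, Plau, Crem, Ctsa and Tjp1. With only the KO+P and WT libraries in the fit, the ATF4 list had 1 gene higher, the cholesterol list 11 higher, the glycolysis list 1 lower and the basement membrane list 0, with 113 genes called over all tested.

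The study's own list of genes that differ between KO and WT was chosen on these WT and KO libraries, so its direction is no independent evidence. All of its genes were tested here. In KO+P cells 115 (68.5%) were called against WT (61 higher, 54 lower), 140 (83.3%) were still over 1.5-fold from WT in the direction of untreated KO cells, 26 were within 1.5-fold and 2 were over 1.5-fold on the other side. The median log2 fold change in that direction was 1.24 in KO+P and 1.13 in untreated KO cells against WT, and 88 of the genes were further from WT with the drug.

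The drug's effect in WT cells rests on 2 WT+P libraries. The median log2 fold change of the 263 new rises was 0.95 between KO+P and KO and 0.91 between WT+P and WT, and that of the 205 new falls was −0.85 and −0.58. For the 219 carried over rises these values were 0.39 and 0.59 and for the 202 carried over falls −0.48 and −0.51. The classes were chosen on the WT, KO and KO+P libraries that these medians also use, so the medians depend in part on that choice. A test of the difference between the drug's effects in KO and WT cells called 0 genes in edgeR (adjusted p under 0.05), and 422 (2.84%) had an unadjusted p under 0.05, 14 of them among the 468 new genes (2.99%). With 2 WT+P libraries, this does not show that the drug acted alike in both.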

How the data were processed

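RNA was sequenced from 16 unstranded poly(A) libraries. The deposited tables, in Salmon format, give estimated counts per transcript (expected counts) made by the authors' quantification, with TPM values normalised for length and depth and the effective length, an "other" value in bases. The study's methods name STAR and HTSeq, while the submitters' processing notes list Salmon 1.5.2, Trim Galore 0.6.7, HTSeq 0.13.5 and DESeq2 1.34.0. Counts were summed per gene with GENCODE M39 (GRCm39) and rounded, and 0.395% to 0.566% of counts, on transcripts with no gene, were left out. Of 27228 genes with any count, 14838 passed filterByExpr. edgeR 4.0.16 (R 4.3.3) fitted all 16 libraries with TMM factors and the replicate number as a block, with Benjamini-Hochberg adjusted p-values from the quasi-likelihood test and SE from the fold change and its F. The labels do not say that numbers mark shared cultures. Same-number deviations of KO+P and WT correlated at 0.435, 0.538 and 0.032, so the third pair was not supported by the data, and calls lost without the block are named. P-values measure the spread between these libraries. On simulated counts for KO+P against WT with 14838 genes, 34 of 50 genes raised 2-fold and 48 of 50 raised 4-fold were called, and 7 of 14638 unchanged genes. The simulation built in the replicate numbers and the spread of the blocked fit, so it cannot speak to a pair that does not hold. Named genes were Pdcd10, the genes the study names, the called genes with the largest rise and fall (10 each way, and 8 each way among carried over and among new genes, at a mean level of 1 CPM or more and with groups that did not overlap), up to 5 genes per list by p-value, and 5 of the genes back within 1.5-fold. The members and lists were chosen with earlier results of these data known. DESeq2 1.42.0, other filters, size factors and sets of libraries were tried. Some genes are not reported here.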

Additional observations from a re-analysis of the deposited data

How the results depend on the processing

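The call between KO+P and WT needs an adjusted p and a fold change. Its count rests on the block, on 3 libraries in each of these 2 groups and on a spread estimated over all 16 libraries. Without the replicate block, edgeR called 471 genes between KO+P and WT, 1 between KO and WT and 1 between KO+P and KO, with 155 carried over, 151 new and 0 back within 1.5-fold. With only the 2 groups compared in the fit these counts of calls were 113, 1 and 3, and with glmTreat, which tests against the 1.5-fold limit itself, 145, 1 and 3. DESeq2 with the block called 396 genes between KO and WT and 933 between KO+P and KO, with 88 back, and Pdcd10 then passed the test (−0.999, adjusted p = 0.049). DESeq2 without the block, chosen after seeing the data, called 64 and 163, with 259 carried over. With every gene with any count the counts were 118 and 194, with 15 back, and with genes of at least 1 CPM 44 and 49. An effective length offset left 2 back, and a fit of the WT, KO and KO+P libraries alone left 0. With each library left out in turn, the calls ranged from 496 to 1985 between KO+P and WT, from 0 to 66 between KO and WT and from 0 to 1579 between KO+P and KO. Carried over genes ranged from 223 to 438, new genes from 101 to 1091, genes back from 0 to 7, and the log2 fold change of Pdcd10 from −1.51, when the library labelled WT replicate 1 was dropped, to −0.57. With the effective length offset it was −0.34 (adjusted p = 0.58). A fit without a library also tests fewer samples, and other causes were not tested. A tally covered the 164 named genes between KO+P and WT in the alternative fits, without glmTreat and without the fits that dropped a KO library. In it 1853 values kept their direction and their side of the threshold, 410 no longer passed it, 26 newly passed it and 0 changed direction. The counts of calls given above, many of which moved, are not part of this tally. Of the 132 named genes that were called, 80 stayed called without the block and 132 in DESeq2 with it, 68 whichever of the 6 libraries was dropped, and 32 with only the 2 groups in the fit. Depth limits the genes under 1 CPM, where a few counts set the fold change.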
